A study of Caenorhabditis elegans with 10 samples.

Results

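The genes vha-18 (sequence name F52E1.10, probe set 188679_s_at) and rskn-1 (sequence name T01H8.1, probe set 193398_s_at) of Caenorhabditis elegans were followed over larvae and adults of 2 genotypes. They are 2 of the 145 genes that could be named on the array, and 2 of 22548 probe sets tested. Both were found through the gene numbers of the authors' list of transcripts increased in mutant larvae, where each is represented by 1 probe set. They were picked from the named genes because their levels were high in adults, so the differences between stages, and the larval difference between genotypes that put them on that list, are given below as descriptions without a test.

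Total RNA of whole worms was measured on 10 one-colour Affymetrix arrays, and the titles call the replicates biological. The groups were adult nep-1 mutants (3 arrays), adult wild-type worms (3 arrays), nep-1 mutant larvae of stage L3 (2 arrays) and wild-type L3 larvae (2 arrays). nep-1 encodes a neprilysin, a peptidase of the cell surface, and the mutant allele came from EMS mutagenesis, with no further description of the lesion in the labels. The wild-type strain was the Bristol variety, and worms of both genotypes were grown at a single temperature on agar plates with Escherichia coli OP50. The descriptions label larval mutant 1 as BR2845L3 and adult mutants 2 and 3 as 2815A and 2815B, and give the other mutant arrays no such number. They do not say whether these labels mark a single mutant strain. Each array sampled whole animals, so that more cells of a type and more RNA per cell cannot be told apart.

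The vacuolar ATPase is a rotary proton pump built of a cytosolic part that splits ATP and a membrane part that carries protons. It acidifies lysosomes and other compartments, and in the worm it is prominent in the intestine, the excretory cell and the epidermis. vha-18 encodes a form of subunit H, another being encoded by vha-15; in yeast this subunit is needed for an active pump. rskn-1 encodes a kinase of the p90 ribosomal S6 kinase family, whose mammalian members are switched on by ERK and by PDK1 and phosphorylate ribosomal protein S6, transcription factors and other targets.

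The probe set names end in _s_at, the array maker's mark for probes that match more than 1 transcript, so isoforms or close relatives may contribute to both signals. The descriptions set 1 adult array of each genotype apart: adult mutant 1 and adult wild-type 3 carry bare names there, while the other adult arrays carry letters. Their mean correlation with the larval arrays across probe sets was 0.891 for adult mutant 1 and 0.903 for adult wild-type 3, against 0.830 to 0.837 for the other 4 adult arrays. Detection calls of present, the authors' call that a transcript was detected, ranged from 11184 to 13939 probe sets per array. nep-1 itself lay at log2 levels of 5.05 to 5.42 in adult mutants against 6.01 to 7.32 in adult wild-type worms, and at 4.85 to 5.20 in mutant larvae against 8.19 to 9.17 in wild-type larvae, so each mutant array lay below each wild-type array of its stage.

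Both genes were far higher in adults than in L3 larvae of either genotype. vha-18 measured 8.79, 10.24 and 10.24 on the adult mutant arrays, against 6.44 and 7.21 on the larval mutant arrays, in log2 levels from RMA, a method that corrects, normalises and summarises the probes of all arrays together. In wild-type worms it measured 10.18, 10.45 and 9.51 on the adult arrays, against 6.24 and 6.76 on the larval arrays. Every adult array lay above every larval array, with a gap of 1.59 on the log2 scale between the lowest adult and the highest larval level. The means were 9.76 ± 0.84 (SD, n = 3) in adult mutants against 6.83 ± 0.54 (SD, n = 2) in mutant larvae, a difference of 2.94 ± 0.50 (SE) or 7.65-fold. In wild-type worms they were 10.05 ± 0.48 (SD, n = 3) in adults against 6.50 ± 0.37 (SD, n = 2) in larvae, a difference of 3.55 ± 0.50 (SE) or 11.7-fold. Here and below the SE comes from limma, a linear model for each probe set in which all 10 arrays share 1 estimate of the spread.

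rskn-1 showed the same direction, with tighter replicates in the RMA levels. Its log2 levels were 9.26, 9.59 and 9.53 on the adult mutant arrays, against 7.32 and 7.25 on the larval mutant arrays. In wild-type worms they were 9.46, 9.72 and 9.03 on the adult arrays, against 7.01 and 7.04 on the larval arrays. Again no adult array overlapped a larval one, and the gap between the lowest adult and the highest larval level was 1.72. The mean was 9.46 ± 0.17 (SD, n = 3) in adult mutants against 7.28 ± 0.05 (SD, n = 2) in mutant larvae, a difference of 2.18 ± 0.23 (SE) or 4.52-fold. In wild-type worms it was 9.41 ± 0.35 (SD, n = 3) in adults against 7.03 ± 0.01 (SD, n = 2) in larvae, a difference of 2.38 ± 0.23 (SE) or 5.21-fold.

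**Figure D1:**
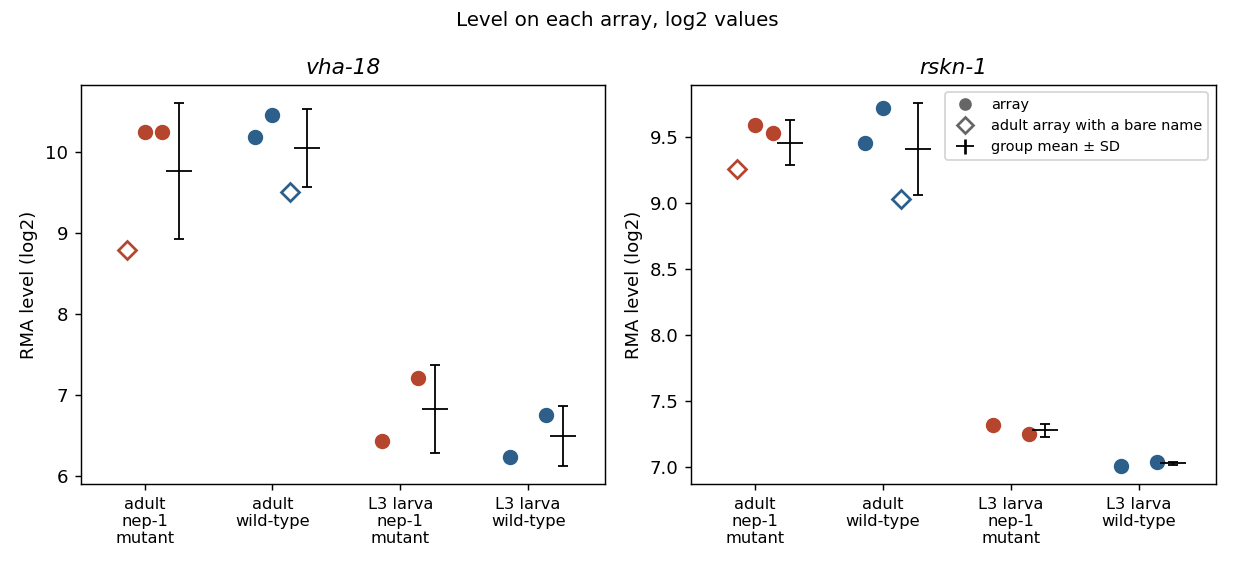
RMA levels (log2, vertical axis) of vha-18 and rskn-1 on each of the 10 arrays, by group on the horizontal axis, with the group mean ± SD as a bar; open diamonds mark the adult arrays with bare names. For both genes all 6 adult arrays lie above all 4 larval arrays, and the open diamonds are the lowest adult arrays of their genotype.

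The place of each gene among all probe sets follows from the same stage differences and is given for scale. In mutants 370 of 22548 probe sets (1.64%) had a larger adult-minus-larval difference than vha-18 and 769 (3.41%) a larger one than rskn-1. In wild-type worms the counts were 281 (1.25%) and 712 (3.16%). The median difference over all probe sets was −0.02 in mutants and −0.07 in wild-type worms, and 95% of probe sets lay below 1.89 and 1.96. Stage differences were common on these arrays. limma called 10.9% of probe sets higher in adults than in larvae of the mutant and 10.8% in wild-type worms (Benjamini-Hochberg adjusted p, threshold 0.05), and in 17.4% of probe sets all 6 adult arrays lay above all 4 larval arrays. In either direction limma called 3810 probe sets in mutants and 3681 in wild-type worms. With the array pairs of the descriptions as a block it called 7930 and 8124. Each pair lies within a stage, so that block takes the spread between pairs out of the error of a stage contrast. Since the genes were chosen for this contrast, these shares give the setting and no support.

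**Figure D2:**
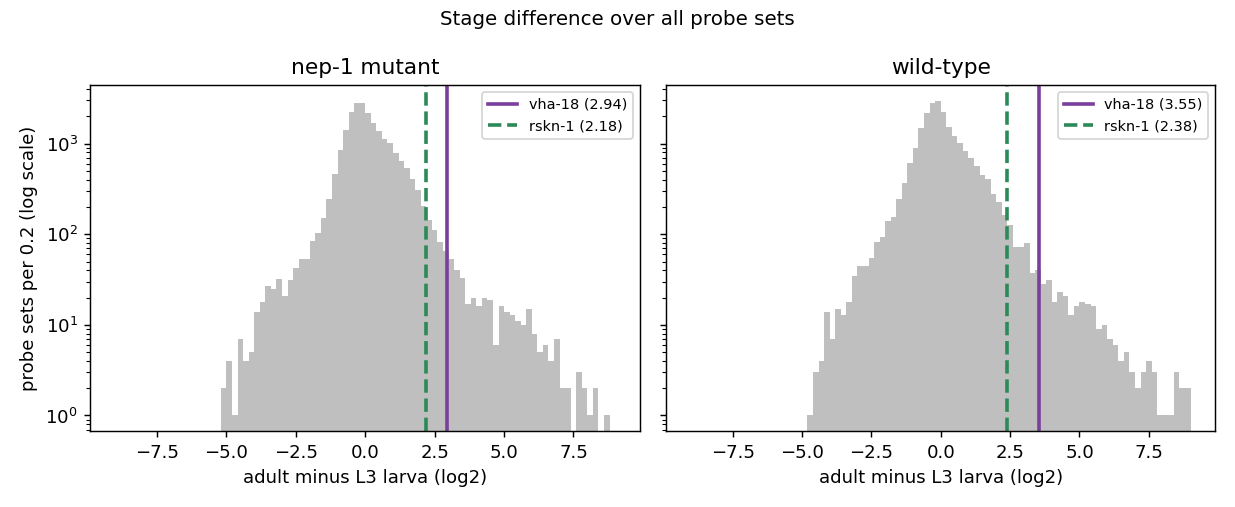
Distribution over 22548 probe sets of the adult-minus-larval difference (log2, horizontal axis) in nep-1 mutants and in wild-type worms, with the number of probe sets per bin on a log vertical axis. Vertical lines mark vha-18 at 2.94 and 3.55 and rskn-1 at 2.18 and 2.38, both in the upper tail.

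The authors' scaled signals, a separate summary of the same arrays on a linear scale, gave the same order of stages. Both probe sets were called present on all 10 arrays, as were 37.5% of probe sets, so both transcripts were detected in larvae. vha-18 had signals of 619.7, 1372.3 and 1465.3 on the adult mutant arrays, against 238.6 and 175.6 on the larval mutant arrays. In wild-type worms it had 1343.3, 1559.9 and 896.1 on the adult arrays, against 140.4 and 117.6 on the larval arrays. The ratio of the adult to the larval mean signal was 5.56 in mutants and 9.82 in wild-type worms. rskn-1 had signals of 894.5 to 1102.3 in adult mutants, against 243.9 to 326.2 in mutant larvae, and of 667.4 to 1130.4 in adult wild-type worms, against 179.6 to 212.2 in wild-type larvae. Its ratios were 3.57 in mutants and 4.78 in wild-type worms. For each gene all 24 of 24 comparisons of an adult with a larval array were higher in the adult. This held in the log2 levels, in the scaled signals and after quantile normalisation or centring on array medians. In the log2 levels the same was true of 17.4% of all probe sets, and shares on the other scales were not counted. All scales come from the same 10 arrays, and the genes were picked for high adult levels, so these counts are a description.

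**Figure D3:**
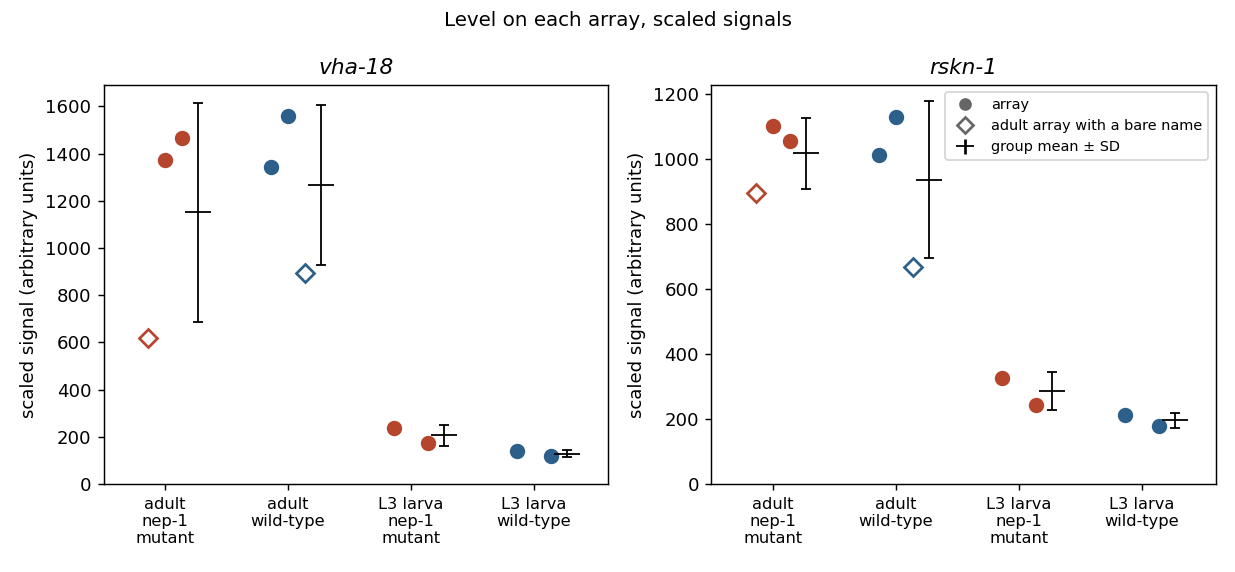
Scaled signals (arbitrary units, linear vertical axis from 0) of vha-18 and rskn-1 on each of the 10 arrays, by group, with the group mean ± SD as a bar and open diamonds for the adult arrays with bare names. The adult signals of vha-18 span 619.7 to 1559.9, above the larval signals of 117.6 to 238.6.

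Among adults, the arrays with bare names were the lowest for both genes. vha-18 measured 8.79 on adult mutant 1 and 9.51 on adult wild-type 3, against 10.18 to 10.45 on the other adult arrays. rskn-1 measured 9.26 and 9.03 on these arrays, against 9.46 to 9.72 on the others. The same held for 55.3% of the 3915 probe sets whose adult arrays all lay above the larval ones. As a share of the distance between the larval mean and the mean of the other adult arrays, vha-18 stood at 58.9% on adult mutant 1 and at 78.8% on adult wild-type 3. rskn-1 stood at 87.2% on adult mutant 1 and at 77.7% on adult wild-type 3. The medians over the 1411 probe sets that were higher by at least 2 on the log2 scale in the other adults than in larvae were 53% on adult mutant 1 and 75.1% on adult wild-type 3. On adult mutant 1, then, rskn-1 stood closer to the other adults than vha-18 did, while on adult wild-type 3 the shares of the genes lay side by side, with 1 array behind each value.

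Signals of larval cuticle genes were also unlike on these arrays. Of the 12 genes on a list of larval cuticle and moult markers, 3 could be named, the body-shape collagens rol-6, dpy-5 and sqt-2, all from the authors' list of larval decreases. Their summed scaled signal was 2954 on adult mutant 1 and 11707 on adult wild-type 3, against 202 to 1577 on the other adult arrays. It was 10518 and 25945 in mutant larvae and 15133 and 36706 in wild-type larvae. In log2 levels rol-6 measured 8.62 to 10.60 on the arrays with bare names against 7.43 to 8.20 on the other adult arrays, and dpy-5 measured 10.30 to 12.48 against 6.40 to 9.93. sqt-2 overlapped, at 8.12 to 10.59 against 7.15 to 8.37. Their part in the adult levels of vha-18 and rskn-1 was not tested. No gene of the lists for adult yolk, oocytes and eggshell (16 genes), sperm (23 genes) or the germ line (8 genes) could be named, so these tissues were not analysed here. Without the arrays with bare names the stage difference of vha-18 was 3.42 in mutants and 3.82 in wild-type worms, and that of rskn-1 was 2.28 and 2.57.

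The adult difference between genotypes was the comparison on which neither the authors' larval list nor the pick for high adult levels was based. The genes were still chosen with earlier results of these data known, so the choice may not have been blind to it. vha-18 differed between adult mutants and adult wild-type worms by −0.29 ± 0.44 (SE) on the log2 scale, with a 95% interval of −1.30 to 0.72 and adjusted p = 1 in limma. The adult genotypes overlapped, with 8.79 to 10.24 in mutants and 9.51 to 10.45 in wild-type worms. An exact two-sided permutation test over the 6 adult arrays gave p = 0.7, where the smallest p that 3 arrays against 3 allow is 0.1. Without adult mutant 1 the difference was 0.19, so the sign rested on that array, and without both arrays with bare names it was −0.07.

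rskn-1 differed by 0.06 ± 0.21 (SE) between adult mutants and adult wild-type worms, with a 95% interval of −0.42 to 0.53 and adjusted p = 1 in limma. Its adult levels overlapped as well, at 9.26 to 9.59 in mutants and 9.03 to 9.72 in wild-type worms, and the exact two-sided permutation test gave p = 0.8. The difference was −0.01 without adult mutant 2, −0.13 without adult wild-type 3 and −0.03 without both arrays with bare names. In this contrast limma called 0 of the 2 genes, and 0% of all probe sets, with 69 of 22548 at an unadjusted p under 0.05. That last count was 623 with the array pairs of the descriptions as a block, 465 without adult mutant 3 and 273 with array weights, each with 0 called. Each of these counts is a smaller share than the 0.05 that evenly spread p-values would give. nep-1 itself, whose adult levels did not overlap between genotypes, was among the probe sets not called. The lack of calls therefore does not show that the adult genotypes were alike. Adult arrays of the genotypes did not overlap for 3.47% of probe sets, and for neither gene. With the array pairs as a block the intervals were −0.75 to 0.17 for vha-18 and −0.32 to 0.43 for rskn-1 (limma adjusted p = 0.937 and 0.981). Equal adult levels are not shown by any of these intervals.

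In larvae both genes had the higher mean in the mutant, in the contrast whose increase calls put them on the authors' list. vha-18 measured 6.44 and 7.21 in mutant larvae against 6.24 and 6.76 in wild-type larvae, a log2 difference of 0.33 ± 0.54 (SE). The genotypes overlapped, because larval mutant 1 lay below larval wild-type 2. The difference was −0.05 without larval mutant 2, 0.06 without larval wild-type 1, 0.59 without larval wild-type 2 and 0.71 without larval mutant 1, so its sign rested on larval mutant 2. Within the array pairs that the descriptions share by naming style, the mutant was higher by 0.21 and by 0.44. rskn-1 measured 7.32 and 7.25 in mutant larvae against 7.01 and 7.04 in wild-type larvae, a difference of 0.26 ± 0.25 (SE), and its genotypes did not overlap. Mutant larvae lay above wild-type larvae without overlap for 7.62% of probe sets, and for rskn-1 but not vha-18. In the scaled signals the larval genotypes did not overlap for either gene, as for 12.8% of all probe sets with the mutant higher, with ratios of the mean signals, mutant over wild-type, of 1.61 for vha-18 and 1.46 for rskn-1.

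The summaries disagreed on the order of the larval replicates of vha-18. In log2 levels larval mutant 1 lay below larval mutant 2, at 6.44 and 7.21, whereas its scaled signal was the higher one, at 238.6 against 175.6. In wild-type larvae the log2 levels were 6.24 and 6.76 and the scaled signals 140.4 and 117.6, again in opposite order. The larval genotypes of vha-18 thus overlapped in RMA levels and not in scaled signals.

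The authors' deposited table compared each mutant array with each wild-type array of its stage and gave a log ratio and a call. In that table vha-18 was called increased in 3 of 4 larval comparisons, at log ratios of 0.5, 1.0 and 0.6, and unchanged for larval mutant 2 against larval wild-type 1, at 0.1. rskn-1 was called increased in the same 3 larval comparisons of the authors' deposited table, at 0.3, 0.7 and 0.5, and unchanged in the same remaining one, at −0.2. The list asked for at least 3 increased calls. Of the probe sets tested, 46 had 3 increased calls and 0 had 4, so both genes reached the highest count of any probe set. Among these, 44 (0.195% of all probe sets) also had present calls on both larval mutant arrays. The 44 were counted from the calls and not read from the list. A further 737 probe sets with present calls on both larval mutant arrays had 2 increased calls.

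In adults the authors' deposited table split vha-18 by array. It called vha-18 decreased in the 3 comparisons of adult mutant 1, at log ratios of −1.3, −1.4 and −0.5. It called it increased for adult mutants 2 and 3 against adult wild-type 3, at 0.7 each, and unchanged in the other 4 comparisons, at −0.2 to 0.1. Each of these decreased and increased calls thus involved an array with a bare name. For rskn-1 the authors' deposited table gave no change in 9 of 9 adult comparisons, at −0.3 to 0.6. The shares of all probe sets with such adult calls were not counted, so neither pattern can be called particular to these genes. Within pairs of the descriptions, mutant minus wild-type on the log2 scale was 0.06, −0.21 and −0.72 for vha-18 and 0.14, −0.20 and 0.23 for rskn-1, with the bare-name pair last.

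**Figure D4:**
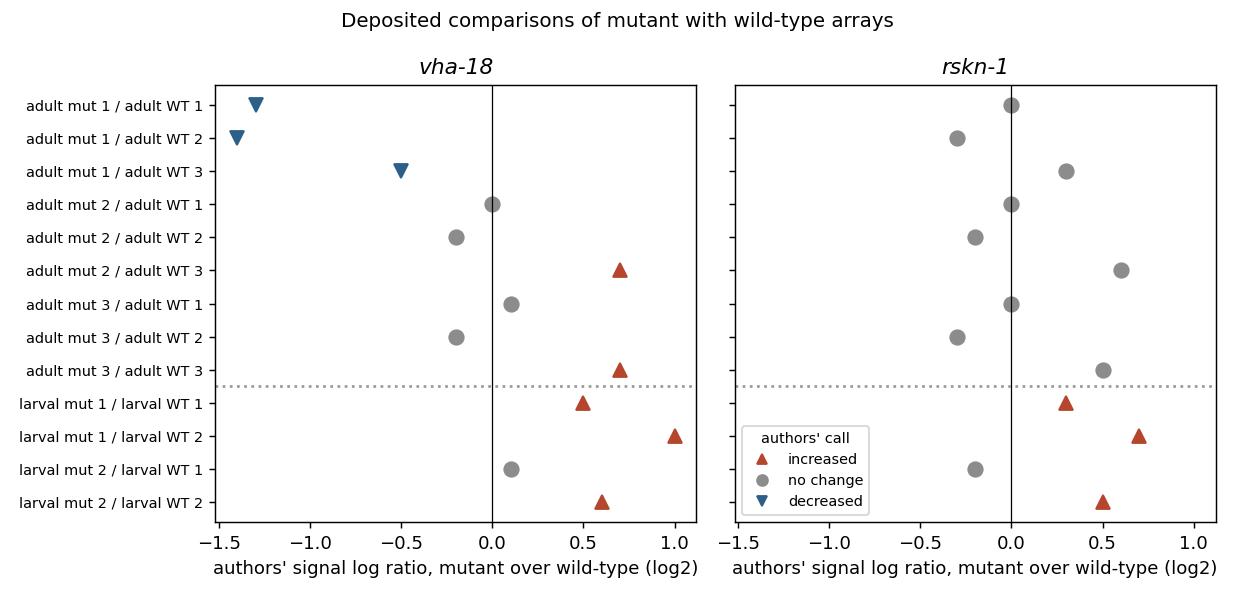
Log ratios (log2, horizontal axis) of mutant over wild-type arrays from the authors' deposited table for vha-18 and rskn-1, with 9 adult comparisons above the dotted line and 4 larval ones below it; upward triangles are increased calls, downward triangles decreased calls and circles no change. The decreased calls of vha-18 all belong to adult mutant 1, at −1.4 to −0.5, and rskn-1 is called no change in all 9 adult comparisons.

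In group means vha-18 was higher in mutant larvae and lower in mutant adults, each with a sign that rested on a single array. By these means its stage difference was smaller in mutants than in wild-type worms by 0.61 on the log2 scale, a contrast of −0.61 ± 0.70 (SE). For rskn-1 the contrast was −0.20 ± 0.33 (SE). With the array pairs as a block the contrasts were −0.61 ± 0.30 (SE) for vha-18 and −0.20 ± 0.25 (SE) for rskn-1. They hold the larval difference that placed the genes on the list, so no test was made. Leaving out each array in turn gave −0.99 to −0.13 for vha-18 and −0.39 to −0.04 for rskn-1, and −0.13 for vha-18 came from the fit without adult mutant 1.

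The stage difference was also read for the 44 probe sets counted above from the authors' larval calls. Among these 44 a high adult level was not the rule. Their median adult-minus-larval difference was −0.09 in mutants and 0.08 in wild-type worms, close to the −0.02 and −0.07 over all probe sets, and 19 of 44 were higher in adults in mutants and 25 of 44 in wild-type worms, against 49% and 45.7% of all probe sets. vha-18 ranked 1 among the 44 in both genotypes, and rskn-1 ranked 3 in mutants and 5 in wild-type worms. Both genes were picked for high adult levels, so these ranks follow in part from that choice. The differences of the 44 ran down to −3.23 in mutants and −2.63 in wild-type worms.

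Of the 22 genes of the vacuolar ATPase list, vha-18 was the one that could be named, and of the 21 genes for S6 kinases and the Ras, ERK, PDK1 and TOR steps around them it was rskn-1. The other subunits of the pump and the other kinases were therefore not analysed here, and nothing can be said of whether they moved with these genes.

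The named gene whose pattern over the 10 arrays was most like that of vha-18 was rskn-1, and the converse also held, with a Pearson correlation of 0.974 between their log2 levels. Such likeness was common: 2874 of 22547 other probe sets (12.7%) correlated with vha-18 above 0.9, and 770 (3.42%) more closely than rskn-1 did. For rskn-1, 461 probe sets (2.04%) were closer than vha-18. Over the 6 adult arrays alone the genes correlated at 0.76, and over the 4 larval arrays at 0.33. Both genes were picked for high adult levels, so their likeness over all 10 arrays follows in part from that choice. These correlations describe arrays that share stage, pair and processing, and no p-value is attached to them.

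Next came atgl-1, an adipose triglyceride lipase that starts the breakdown of stored fat, at 0.950 with vha-18 and 0.951 with rskn-1. Within a stage the correlations of the neighbours were uneven. For atgl-1 they were 0.31 in adults and 0.90 in larvae with vha-18, and 0.78 and 0.14 with rskn-1. The log2 levels of atgl-1 were 8.69 to 9.19 in adults against 6.78 to 7.70 in larvae, with no overlap. Its adult-minus-larval difference was 1.59 in mutants and 1.69 in wild-type worms. acdh-2, an acyl-CoA dehydrogenase of fatty acid oxidation, followed at 0.909 with vha-18 and 0.862 with rskn-1, and ran from 4.93 to 7.89 in adults against 3.9 to 4.64 in larvae. With vha-18 it correlated at 0.77 in adults and −0.92 in larvae, and with rskn-1 at 0.24 and −0.68. M01H9.3 correlated at 0.860 with vha-18 and 0.906 with rskn-1, with 9.79 to 10.61 in adults against 8.62 to 9.44 in larvae. Its correlation with vha-18 was −0.53 in adults and 0.98 in larvae, and with rskn-1 0.14 and 0.44. The fifth place was taken by Y51H7C.1 for vha-18, at 0.851, and by R11A8.1 for rskn-1, at 0.782. In adults and in larvae these correlations were 0.72 and −0.32 for Y51H7C.1, and 0.82 and 0.67 for R11A8.1. Both of the fifth-placed genes overlapped between stages, with adult levels down to 5.59 for Y51H7C.1 against larval levels up to 6.18, and down to 6.28 for R11A8.1 against up to 6.76. All of these genes could be named only because the authors had listed them, acdh-2 and Y51H7C.1 as decreased in adult mutants and the others as increased in mutant larvae.

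**Figure D5:**
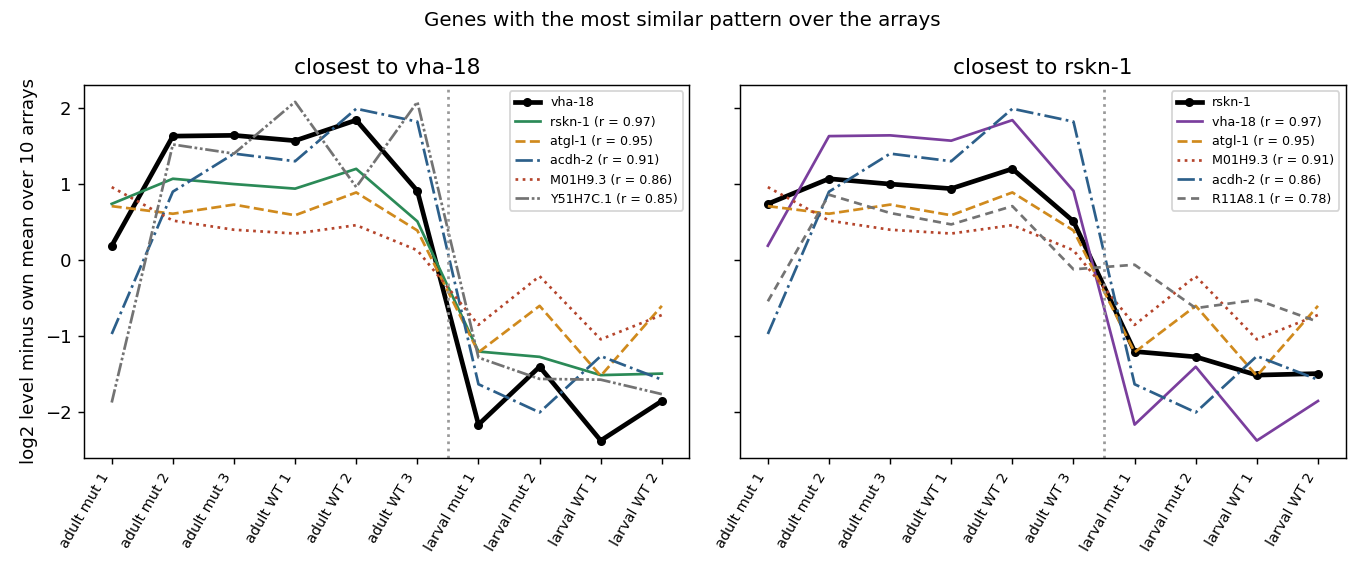
Log2 level minus the gene's own mean over the 10 arrays (vertical axis) on each array (horizontal axis, adult arrays left of the dotted line) for vha-18, rskn-1 and the 5 named genes most correlated with each, with the correlation in the legend. vha-18, rskn-1, atgl-1, M01H9.3 and acdh-2 lie higher on every adult than on every larval array, and vha-18, acdh-2, Y51H7C.1 and R11A8.1 have their lowest adult level on adult mutant 1.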

How the data were processed

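The submitters' processing notes name RMA, without a version, and the deposited log2 values are RMA levels on that basis. Per the file headers, the authors' comparison tables hold a scaled signal and a detection call for each array and a signal log ratio (log2) and change call for each mutant and wild-type pair; a trimmed mean of 299.9 on every array matched the target of 300 in the headers. A further 40 columns of these tables were not used. All 22548 probe sets beside the 77 controls were tested, with no filter. Gene numbers came from the authors' lists: 152 of 196 listed probe sets had 1 number that RefSeq's genes (WBcel235) hold, giving 145 names, and the probe set of highest mean level stood for its gene. No build was named in the files, so no coordinates are given.

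Group means were fitted with limma 3.58.1 (R 4.3.3) over 10 arrays (6 residual degrees of freedom) without a block, with Benjamini-Hochberg adjustment over all probe sets. The fit was tested on simulated data with noise independent between arrays, so that test cannot speak to deviations that paired arrays share. The number of arrays limits the precision. Arrays that the descriptions pair by letter or naming style deviated together from their group means (correlations 0.612, 0.647 and 0.623 in adults and 0.561 in larvae). Permutation tests used SciPy 1.17.1. Named genes were the members, nep-1, listed genes with a name, and the 5 most correlated genes per member. Members and lists were chosen with earlier results of these data known. Alternatives were quantile normalisation, median centring, scaled signals (log2 after adding 16), the upper 60% of probe sets by level, trend with robust estimation, array weights, blocks, each stage alone and leaving out arrays.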

Additional observations from a re-analysis of the deposited data

How the results depend on the processing

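The adult difference between genotypes stayed outside the threshold in all 20 alternatives for each gene (limma adjusted p 0.937 to 1 for vha-18 and 0.981 to 1 for rskn-1), but its sign was not stable. For rskn-1 it was −0.01 after median centring and −0.03 when both bare-name adult arrays were left out, and for vha-18 it was 0.00 with array weights. Leaving out each array in turn gave −0.56 to 0.19 for vha-18 and −0.13 to 0.22 for rskn-1. In larvae the rskn-1 difference was 0.42 after quantile normalisation, 0.30 after median centring and 0.50 in scaled signals, and leave-one-out values ran from −0.05 to 0.71 for vha-18, the lowest without larval mutant 2, and from 0.23 to 0.29 for rskn-1. The stage difference of rskn-1 in mutants was 1.64 after quantile normalisation and 1.79 in scaled signals, and in wild-type worms 1.98 after quantile normalisation, while that of vha-18 in wild-type worms was 3.11 in scaled signals. Leave-one-out ranges of the stage difference were 2.55 to 3.42 (mutants) and 3.29 to 3.82 (wild-type worms) for vha-18, and 2.11 to 2.28 and 2.22 to 2.57 for rskn-1. The cause of these shifts was not tested. Adult arrays with the same number in their titles did not vary together (correlations of deviations −0.536, −0.222 and −0.652). With them as a replicate block the adult differences were −0.29 for vha-18 and 0.06 for rskn-1 (limma adjusted p = 1 each), and the pair block of the descriptions gave the same differences with smaller SEs and changed no call on either gene. Probe sets called between stages numbered 3810 in mutants and 3681 in wild-type worms. They numbered 572 and 858 in scaled signals, 5833 and 7207 with array weights, and 6975 and 6994 without the bare-name pair. With the replicate block they numbered 1393 and 1271, and with the pair block 7930 and 8124. Both kinds of block lie within a stage, so they take the spread between blocks out of the error of a stage contrast. Leave-one-out counts were 1336 to 6319 in mutants and 1000 to 5686 in wild-type worms. Of the called probe sets, 64.7% (mutants) and 66.1% (wild-type worms) were higher in adults, against 46.1% and 50.8% after quantile normalisation, 48.3% and 60.2% after median centring and 72.9% and 80.9% in scaled signals, whose median over all probe sets shifted to −0.17 and −0.18. Centring moved that median to −0.14 in mutants. The lists gave no other probe set for either gene, so that alternative was not run.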
